A study of Mus musculus with 15 samples.

Results

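Ovaries of newborn mice without Foxl2 were compared with ovaries of newborn wild-type mice on 6 arrays, 3 of each genotype, out of 15 arrays in the series. The 3 null arrays carried RNA of Foxl2-/- ovaries (a gene knock-out in all cells) and the 3 wild-type arrays RNA of Foxl2+/+ ovaries, all collected at birth from mice labelled with the strain NIHS-BC, which the methods describe as a mixed background of 129S6/SvEvTac and NIH-Swiss/BC. No agent was given to either group. Each array held ovary RNA in the Cy3 channel and Universal Mouse Reference RNA, a pool of cultured cell lines, in the Cy5 channel, without dye swaps. According to the methods the replicates were gonads of individual mice. The other 9 arrays held 3 newborn heterozygous (Foxl2+/-) ovaries and, at 7 days postnatum (dpn), 2 pools of ovaries for each of the 3 genotypes, and they entered the fit so that all groups shared an estimate of the spread. All values below are log2 ratios of ovary over reference signal after normalization, so that a difference of 1 on this scale is a doubling, and a gene is represented by its brightest probe.

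Foxl2 encodes a forkhead transcription factor of the somatic cells that surround the oocytes. In the mouse ovary, oocytes are enclosed around birth by a single layer of flat pregranulosa cells to form primordial follicles, and some of these follicles then start to grow, with pregranulosa cells turning cuboidal and making signals such as activin, inhibin and estrogen. The same bipotential supporting lineage gives rise to Sertoli cells in the testis, which are marked by Sox9 and by secreted factors such as Dhh, so genes of both lineages are of interest where Foxl2 is missing.

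The tissue was checked against its marker genes. The germ cell markers had a summed log2 ratio between 7.57 and 7.81 on the 6 arrays, and the ovarian somatic markers ranged from 7.37 to 7.62 without Foxl2 and from 6.94 to 7.34 in wild-type ovaries. The somatic marker ranges did not overlap between the genotypes, and their part in other results was not tested. The germ cell genes Sycp3, Figla and Dazl lay above 3.9 on every newborn array. The probe assigned to Foxl2 on chromosome 9 did not check the genotype, since it read -0.25, -0.26 and -0.3 on the null arrays and -0.29, -0.2 and -0.25 on the wild-type arrays. Its difference was -0.03 ± 0.04 (SE, limma adjusted p = 0.83), and whether the probe lies in the deleted part was not tested.

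The 3 wild-type arrays fell into a pair and a single array, and the correlations do not say which of them is typical. Across probes, which are not independent replicates, the null arrays correlated with each other at 0.932 to 0.954. Wild-type replicates 2 and 3 correlated at 0.958, whereas replicate 1 correlated with them at 0.91 and 0.894. With the newborn heterozygous arrays, replicate 1 correlated at 0.923 to 0.942, above replicate 2 at 0.905 to 0.918 and replicate 3 at 0.883 to 0.907. With the null arrays the values were 0.915 to 0.918 for replicate 1, 0.9 to 0.933 for replicate 2 and 0.895 to 0.915 for replicate 3. With the 7 dpn heterozygous and wild-type arrays they were 0.923 to 0.939, 0.86 to 0.884 and 0.843 to 0.865. Replicate 1 carried fat genes. Adipoq, an adipocyte hormone, read 3.55 there against 0.38 to 0.74 on the other 8 newborn arrays, and Ucp1, the uncoupling protein of brown fat, read 4.7 against 0.35 to 1.19. On the 7 dpn arrays Adipoq lay between 3.16 and 3.76, while Ucp1 lay between 0.1 and 0.98. The summed log2 ratio of the 7 fat markers was 6.5 on wild-type replicate 1, 3.41 and 3.36 on replicates 2 and 3, and 2.94 to 3.36 on the null arrays. Growing follicle genes were also higher on that array, with a median log2 ratio of 0.6 against 0.23 and 0.27 on replicates 2 and 3 and 0.95 and 1.48 on the wild-type arrays at 7 dpn.

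Wild-type replicates 2 and 3 carried skeletal muscle genes instead. Acta1, the actin of skeletal muscle, read 3.74 and 1.4 on these arrays and -1.99 on replicate 1, and it lay between -2.3 and -1.47 on the null arrays. The summed log2 ratio of the 8 muscle markers was 5.03 and 3.44 on replicates 2 and 3, 2.37 on replicate 1, and 2.42 to 2.48 on the null arrays. The wild-type group thus combined an array with fat genes and a pair of arrays with muscle genes, and the comparison is given with all 3 wild-type arrays, without replicate 1, and against replicate 1 alone. The part of fat or muscle RNA in any other difference was not tested. In whole ovaries, fewer cells of a type and less RNA per cell cannot be told apart.

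**Figure D1:**
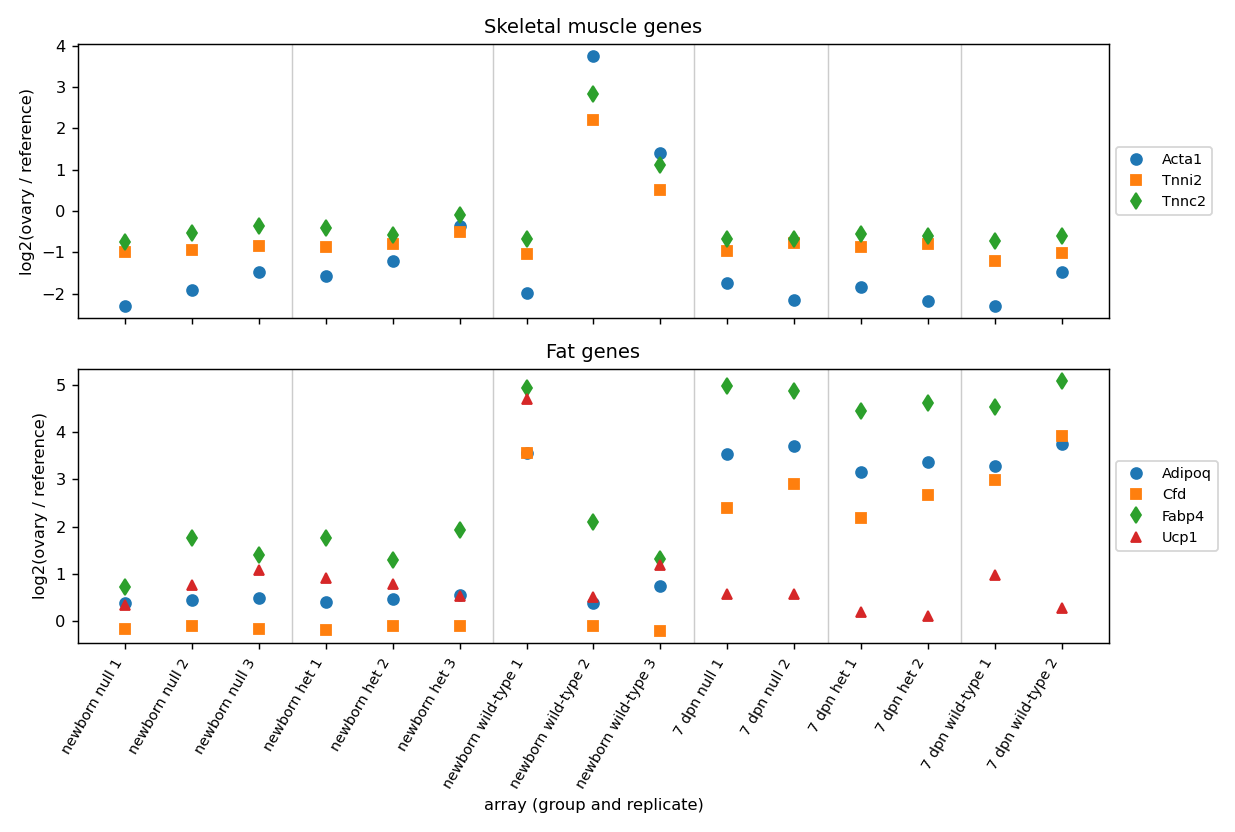
Log2 ratio of ovary over reference for 3 skeletal muscle genes (upper panel) and 4 fat genes (lower panel) on each of the 15 arrays, 1 point per gene and array, with grey lines between groups. The muscle genes stand out on newborn wild-type replicates 2 and 3, where Acta1 reads 3.74 and 1.4, and the fat genes stand out on newborn wild-type replicate 1 and, except for Ucp1, on the 7 dpn arrays.

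With all arrays, 685 of 41006 probes differed between null and wild-type newborn ovaries at a limma adjusted p under 0.05 (1.67%), 430 of them higher (1.05%) and 255 lower (0.622%) without Foxl2. At the level of named genes, 310 of 12254 were called (2.53%), of which 207 rose (1.69%) and 103 fell (0.841%). The median log2 fold change over all named genes was 0.02, and 202 of the risen and 101 of the fallen genes were above background on all 6 arrays. The 3 null and 3 wild-type arrays did not overlap for 17.9% of all genes. The genes with the largest changes described next were taken from those without overlap, so that their separation is no further evidence. Among the genes with the largest rises were the transporter gene Slc46a2, the nuclear receptor genes Vdr and Nr0b1 and the secreted cystatin gene Cst9, and among those with the largest falls were the oocyte gene Oog1, the aldo-keto reductase genes Akr1c12 and Akr1c13, and Bmp3 and Fst of the BMP and activin pathways.

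**Figure D2:**
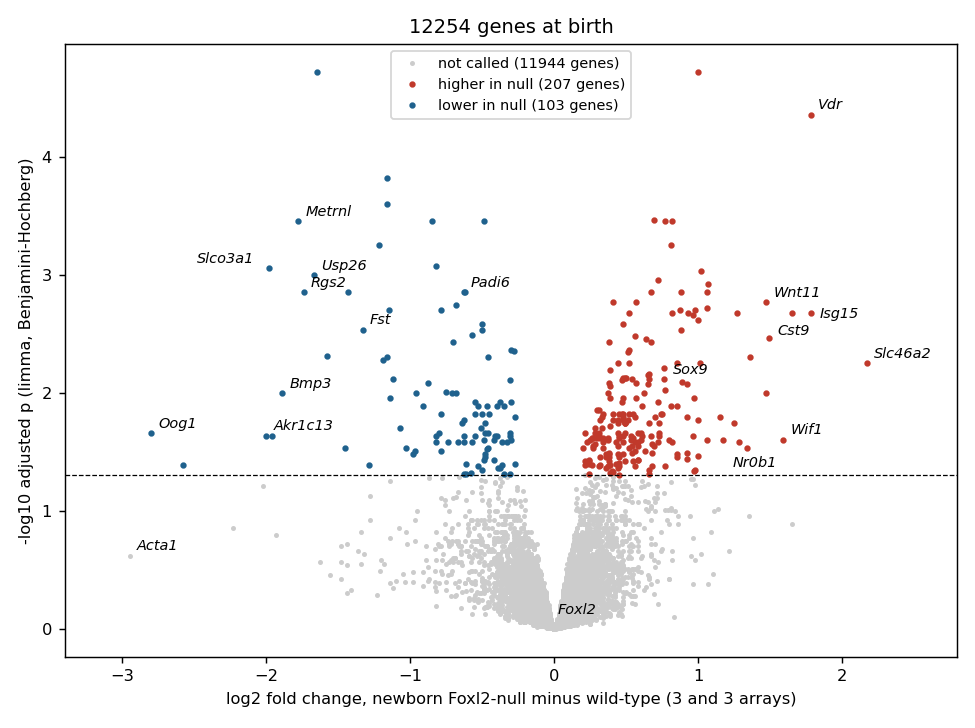
Log2 fold change of 12254 genes between 3 newborn Foxl2-null and 3 wild-type arrays (horizontal axis) against -log10 of the limma adjusted p (vertical axis), 1 point per gene, with the dashed line at 0.05. The 207 genes called higher are red and the 103 called lower are blue, and Vdr, at 1.78, lies near the top while Acta1, at -2.95, lies below the line.

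The promoters of Slc46a2 and Vdr among the rises and of Oog1 and Akr1c13 among the falls, all of them among the largest differences, are shown because a forkhead factor is the gene removed. Each window holds 300 bases, most of them upstream of the annotated start (RefSeq, GRCm38.p6, 5′ to 3′ on the strand of the gene). Capitals mark any match to GTAAACA, the forkhead core, or AAGGTCA, the motif bound by NR5A receptors, read on both strands, where the opposite strand reads TGTTTAC and TGACCTT. The windows are Slc46a2 at chr4:59915007-59915306 (minus strand), Vdr at chr15:97908247-97908546 (minus strand), Oog1 at chr12:87602415-87602714 (plus strand) and Akr1c13 at chr13:4190937-4191236 (plus strand).
Slc46a2: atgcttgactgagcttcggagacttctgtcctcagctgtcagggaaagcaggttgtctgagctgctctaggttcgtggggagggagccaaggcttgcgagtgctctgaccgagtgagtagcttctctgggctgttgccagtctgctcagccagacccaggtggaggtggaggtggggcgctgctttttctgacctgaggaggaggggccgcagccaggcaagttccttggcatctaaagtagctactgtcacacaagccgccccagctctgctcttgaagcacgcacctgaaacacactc
Vdr: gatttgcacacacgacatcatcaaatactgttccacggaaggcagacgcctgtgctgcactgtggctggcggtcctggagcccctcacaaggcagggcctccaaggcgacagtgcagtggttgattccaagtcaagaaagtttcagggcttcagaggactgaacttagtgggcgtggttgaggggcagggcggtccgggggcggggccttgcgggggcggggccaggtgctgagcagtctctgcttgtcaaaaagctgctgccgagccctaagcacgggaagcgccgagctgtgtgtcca
Oog1: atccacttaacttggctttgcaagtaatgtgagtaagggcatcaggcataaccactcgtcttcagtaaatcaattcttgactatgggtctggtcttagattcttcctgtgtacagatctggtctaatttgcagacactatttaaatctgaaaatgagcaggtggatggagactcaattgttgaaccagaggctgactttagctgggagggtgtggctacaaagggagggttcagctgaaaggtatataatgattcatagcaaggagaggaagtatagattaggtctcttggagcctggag
Akr1c13: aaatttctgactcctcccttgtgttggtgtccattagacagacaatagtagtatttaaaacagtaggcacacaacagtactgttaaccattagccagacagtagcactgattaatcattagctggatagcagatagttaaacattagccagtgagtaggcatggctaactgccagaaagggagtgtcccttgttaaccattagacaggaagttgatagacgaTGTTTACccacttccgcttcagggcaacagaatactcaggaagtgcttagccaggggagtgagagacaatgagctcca
A forkhead core was found only in the Akr1c13 window, as TGTTTAC at position -28 from the start, and no NR5A motif was found in any of the 4 windows. Among all 32851 promoter windows of this length, 3.65% held the forkhead core and 4.72% the NR5A motif. Of the 29 genes with the largest changes reported here, 24 had a window, and the forkhead core was found in 3 of them, Akr1c12, Akr1c13 and Il33. A gene counted if any of its windows held the motif, so the count cannot be set against the share of single windows. Akr1c12 and Akr1c13 are also close copies and not separate finds. These matches are letters in a window and not sites of binding.

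Slc46a2, which encodes a membrane transporter of thymic stromal cells, was among the largest rises, although only a lower bound is known for it. It read 1.4, 0.71 and 1.37 on the null arrays and -0.81, -1.05 and -1.15 on the wild-type arrays, where it was not well above background on any array. The ovary channel was therefore at least 3.05-fold higher in null ovaries (adjusted p = 0.0056). Vdr, the nuclear receptor for vitamin D, read 0.15, -0.13 and -0.3 without Foxl2 and -1.67, -1.9 and -2.05 with it. Its log2 fold change was 1.78 ± 0.12 (SE, adjusted p = 4.4e-05), a 3.44-fold difference, and a further Vdr probe gave 1.83 (adjusted p = 0.00019). Nr0b1, the orphan receptor also known as DAX1, was already abundant in wild-type ovaries at 3.89, 3.43 and 4.1 and read 5.14, 5.55 and 4.75 in null ovaries, a log2 fold change of 1.34 ± 0.26 (adjusted p = 0.029).

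Further rises included those of Cst9, Svs5, Fbln2, Lor and Cited4. Cst9, a cystatin known from early Sertoli cells, read 2.43, 2.2 and 2.42 on the null arrays against 0.4, 0.84 and 0.85 (log2 fold change 1.65 ± 0.2, adjusted p = 0.0021). Svs5, a seminal vesicle secretory protein, read 2.88, 2.79 and 3.03 against 1.07, 1.28 and 1.9 (1.49 ± 0.19, adjusted p = 0.0034). Fbln2, a fibulin of the extracellular matrix, rose by 1.17 ± 0.22 on the log2 scale (adjusted p = 0.025). Loricrin (Lor), a structural protein of cornified epithelia, rose by 1.07 ± 0.12 (adjusted p = 0.0012), and Cited4, a transcriptional coactivator, by 1.15 ± 0.2 (adjusted p = 0.016).

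Isg15, Ifit1, Cd83, Ccl17 and Il33 were also among the rises. Isg15, a ubiquitin-like protein induced by interferon, read -1.03, -1 and -0.64 without Foxl2 and -2.95, -2.4 and -2.65 with it (1.78 ± 0.21, adjusted p = 0.0021). Ifit1, another interferon-induced gene, rose by 1.36 ± 0.19 (adjusted p = 0.005), while a second Ifit1 probe gave -0.15 (adjusted p = 0.72). Cd83, a surface protein of activated dendritic cells, rose by 1.47 ± 0.23 (adjusted p = 0.01), Ccl17, a chemokine, by 1.27 ± 0.15 (adjusted p = 0.0021), and Il33, an interleukin, by 1.25 ± 0.22 (adjusted p = 0.018). The general immune cell markers are given beside them. None of 11 was called in either direction, and their summed log2 ratio ranged from 4.13 to 4.46 without Foxl2 and from 4.2 to 4.44 in wild-type ovaries.

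Oog1, an oocyte-specific gene of a family of close copies, had the largest fall among the genes called with all arrays and without overlap between the groups. It read 2.39, 1.37 and 1.73 on the null arrays and 6.11, 4.2 and 3.59 on the wild-type arrays, with the highest value on wild-type replicate 1. Its log2 fold change was -2.8 ± 0.51 (adjusted p = 0.022) with all arrays and -2.08 (adjusted p = 0.0042) without that replicate. The aldo-keto reductases Akr1c13 and Akr1c12, neighbouring genes of a family whose members reduce steroids and other carbonyls, fell by 2 ± 0.37 and 1.96 ± 0.36 on the log2 scale (adjusted p = 0.023 for both). Akr1c13 read -1.22, -1.3 and -1.1 against 1.24, 0.45 and 0.69. Because these copies are closely related, hybridization of RNA of one to the probe of the other cannot be separated here.

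Extracellular proteins were among the falls. Metrnl, a secreted meteorin-like protein, read -2.89, -2.21 and -2.48 on the null arrays against -0.48, -0.78 and -0.98 (-1.78 ± 0.16, adjusted p = 0.00035). Bmp3, a ligand that opposes other BMPs, read -0.15, 0.15 and 0.11 against 2.49, 1.11 and 2.2 (-1.89 ± 0.3, adjusted p = 0.01). Coch, the extracellular protein cochlin, read -0.28, -0.38 and -0.42 against 0.96, 1.24 and 1.01 (-1.43 ± 0.16, adjusted p = 0.0014).

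Cell surface and intracellular proteins were also among the falls. Slco3a1, an organic anion transporter, read -0.79, -0.87 and -0.45 in null ovaries and 1.9, 0.99 and 0.95 in wild-type ovaries (-1.98 ± 0.21, adjusted p = 0.00088). Rgs2, which limits G protein signalling, read 0.36, 0.53 and 0.63 against 2.59, 1.89 and 2.27 (-1.74 ± 0.18, adjusted p = 0.0014). Usp26, an X-linked deubiquitinase, fell by 1.67 ± 0.18 (adjusted p = 0.001) and H2al2a, a histone H2A variant, by 1.22 ± 0.12 (adjusted p = 0.00056), whereas a second H2al2a probe gave -0.05 (adjusted p = 0.79). Among enzymes, Ephx2, the soluble epoxide hydrolase, fell by 1.58 ± 0.22 (adjusted p = 0.0049), Chst8, a sulfotransferase, by 1.45 ± 0.29 (adjusted p = 0.029), and Miox, which oxidizes myo-inositol, by 1.29 ± 0.27 (adjusted p = 0.041).

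Of these 29 genes, 9 of the 15 risen and 8 of the 14 fallen kept their call when any 1 of the 6 null and wild-type arrays was left out. The risen genes with this property were Slc46a2, Vdr, Isg15, Cst9, Svs5, Wnt11, Ifit1, Ccl17 and Lor, and the fallen genes were Slco3a1, Metrnl, Rgs2, Usp26, Ephx2, Coch, Fst and H2al2a. Wif1 lost its call without any array but wild-type replicate 1 (adjusted p up to 0.1). Chst8 and Miox lost it without any null array or wild-type replicate 2 (up to 0.12 and 0.17), Akr1c12 and Akr1c13 without any null array or wild-type replicate 3 (up to 0.096 and 0.092), and Cited4 without null replicate 1 or 2 or wild-type replicate 2 or 3 (up to 0.1). Nr0b1 lost it without null replicate 1 or 2 or wild-type replicate 2 (up to 0.12), Il33 without null replicate 1 or 2 or wild-type replicate 3 (up to 0.08), and Fbln2 and Oog1 without null replicate 2 or 3 (0.1). Cd83 lost it without null replicate 2 (0.054) and Bmp3 without wild-type replicate 3 (0.052). Over all genes, 94 were called whichever array was left out, 60 risen and 34 fallen.

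**Figure D3:**
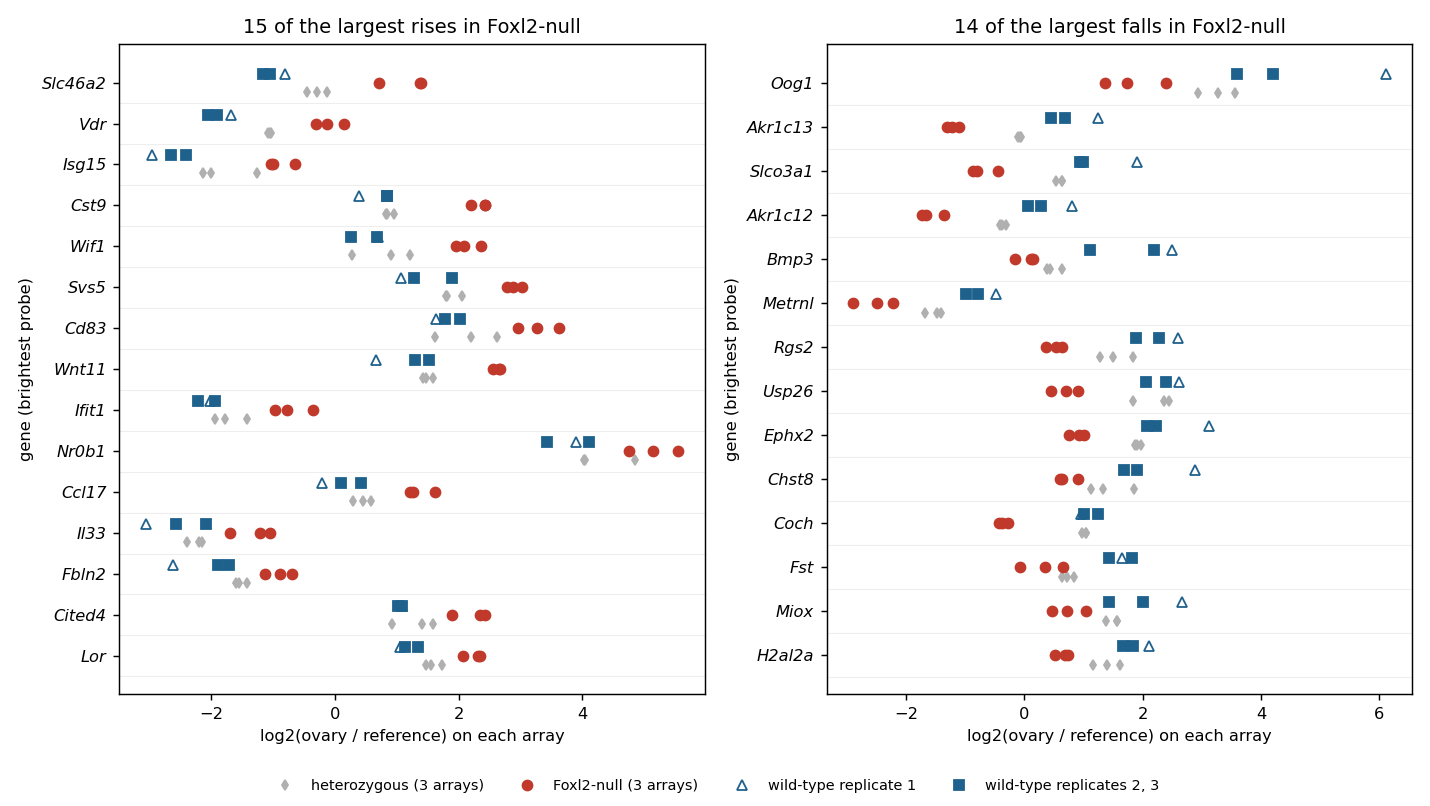
Log2 ratio of ovary over reference on each newborn array (horizontal axis) for the 15 genes with the largest rise (left) and 14 of those with the largest fall (right) in Foxl2-null ovaries, 1 point per array. Red circles are the null arrays, filled blue squares wild-type replicates 2 and 3, open triangles wild-type replicate 1 and grey diamonds the heterozygous arrays. The null arrays lie to one side of all 3 wild-type arrays for each gene because the genes were chosen that way.

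In the fit over all groups, leaving out wild-type replicate 1 raised the number of calls. That fit takes its spread also from the heterozygous arrays and the 7 dpn pools. With only the newborn null and wild-type arrays in the fit, the count went the other way. There 98 probes were called with replicate 1 and 11 without it, and the cause was not tested. In the fit over all groups without replicate 1, 869 of 12254 genes differed (7.09%), 534 higher (4.36%) and 335 lower (2.73%). At the probe level, 2959 (7.22%) were called in place of 685. Over all probes the balance of directions turned, from 62.8% of the called probes higher with all arrays to 45.9% without replicate 1 (1359 higher and 1600 lower) and 28.6% against replicate 1 alone. Of the 685 probes, 661 were also called without replicate 1 in the same direction, and 254 were also called against replicate 1 alone, where 255 of 12245 genes differed (2.08%). The heterozygous arrays differed from wild-type replicates 2 and 3 at 2675 probes (6.52%), and from all 3 wild-type arrays at 12 (0.0293%). All 15 of these rises and all 14 of these falls were also called without replicate 1, and 9 and 12 of them against replicate 1 alone.

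The largest falls without replicate 1 were partly muscle genes. Acta1 (-4.42, adjusted p = 0.0035), Tnnc2 (-2.54, adjusted p = 0.0046) and Tnni2 (-2.29, adjusted p = 0.0055), the troponins being part of the contractile filament, were lower in null ovaries than in replicates 2 and 3, and 5 of the 8 muscle markers were called. Against replicate 1 alone these genes read 0.08, 0.12 and 0.08. Also called lower without replicate 1 were Vmn1r58, a vomeronasal receptor (-2.22), Tnfrsf10b, a death receptor (-2.04), and Mlc1, a membrane protein (-1.96), each of which was high on wild-type replicates 2 and 3 and low on replicate 1. In the same comparison a second Mlc1 probe gave 0.22 (adjusted p = 0.21), further Vmn1r58 probes gave -0.16 and -0.03 (adjusted p = 0.23 and 0.91), and a second Tnfrsf10b probe gave -0.42 (adjusted p = 0.0018). Gldn, which encodes the matrix protein gliomedin, was not well above background on any null array and is given without a fold. It was not called with all arrays (adjusted p = 0.061) and was called without replicate 1 (adjusted p = 0.043). Dhh, the Hedgehog ligand of Sertoli cells, read 3.2, 2.6 and 3 on the null arrays and 2.56, 1.45 and 0.75 on the wild-type arrays. Its difference was 1.35 ± 0.36 (adjusted p = 0.11) with all arrays and 1.81 (adjusted p = 0.0032) without replicate 1. Spink4, a secreted protease inhibitor, differed by 1.65 (adjusted p = 0.13) with all arrays and by 2.08 (adjusted p = 0.02) without replicate 1.

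**Figure D4:**
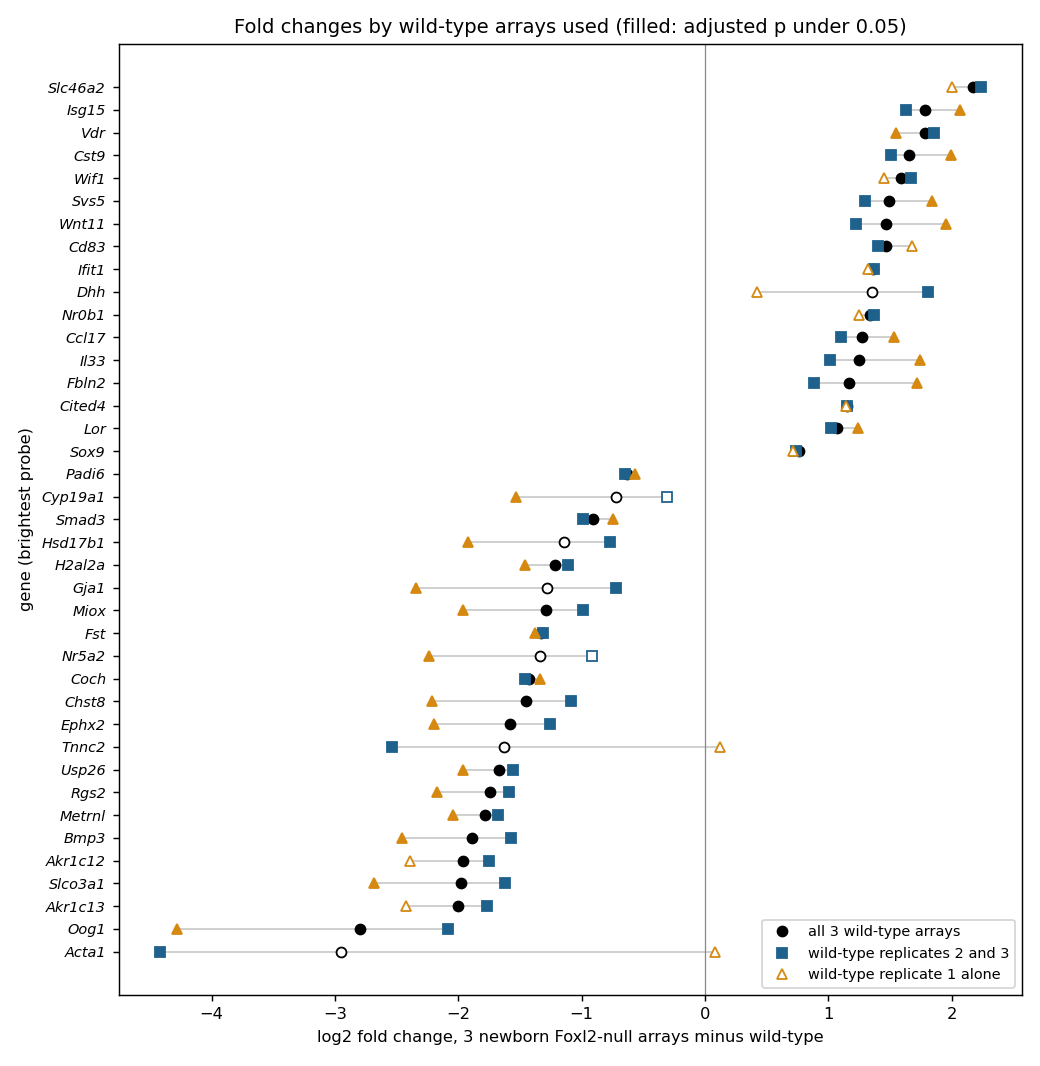
Log2 fold change of the 3 newborn null arrays against all 3 wild-type arrays (circles), wild-type replicates 2 and 3 (squares) or wild-type replicate 1 alone (triangles) for the 29 genes with the largest changes reported here and 10 further genes, with filled symbols where the limma adjusted p is under 0.05. Acta1 and Tnnc2 spread from -4.42 and -2.54 to 0.08 and 0.12 with the wild-type arrays used, whereas the 3 symbols of Vdr, Sox9, Coch and Fst lie close together.

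Among 24 measured genes of Sertoli cells and the early testis, 4 rose and none fell, beside 1.69% and 0.841% of all genes, and the median change of the list was 0. The risen members were Cst9, Nr0b1, Fbln2 and Sox9. The list holds genes that the study had itself ranked higher in single or compound Foxl2 mutants, among them Nr0b1, Fbln2 and Sox9. Its count is therefore not independent of that study. Sox9, the transcription factor that directs Sertoli cell differentiation, read -0.41, -0.38 and -0.41 in null ovaries and -1.12, -1.03 and -1.32 in wild-type ovaries, and its log2 fold change of 0.76 ± 0.11 (adjusted p = 0.0062) corresponded to a 1.69-fold difference. The wild-type and null arrays did not overlap, and the call was kept without each array in turn, although a second Sox9 probe gave 0.26 (adjusted p = 0.4). On the brighter probe Sox9 was below the reference in both genotypes, and on the second it averaged 0.06 in null and -0.19 in wild-type ovaries.

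Of 20 measured genes of Leydig cells and steroid synthesis, 2 rose and none fell, beside 1.69% and 0.841% of all genes, with a median of -0.05 and with 14 members lower in null ovaries. The risen members were Nr0b1 and Hsd17b3, the testis enzyme that makes testosterone, which differed by 0.34 ± 0.07 (adjusted p = 0.029) and by 0.68 (adjusted p = 0.0018) on a second probe. The Hsd17b3 call on the brighter probe was lost without any array but wild-type replicate 1 (up to 0.1). Cyp19a1, the aromatase that makes estrogens, read 0.07, 0 and 0 on the null arrays and 1.57, 0.38 and 0.28 on the wild-type arrays (-0.72 ± 0.27, adjusted p = 0.26). Its highest value was on wild-type replicate 1, and the change without that array was -0.31 (adjusted p = 0.2), while a second Cyp19a1 probe gave -1.7 (adjusted p = 0.055) and -1.19 (adjusted p = 0.017). Hsd17b1, which activates estrone in granulosa cells, differed by -1.14 ± 0.26 (adjusted p = 0.056) and was called without replicate 1 (-0.77, adjusted p = 0.0036). Akr1c14, a reductase of the same cluster as Akr1c13, read 3.34, 3.34 and 3.58 against 4.42, 3.91 and 4.12 (-0.73 ± 0.19, adjusted p = 0.1). For Cyp11a1, which starts steroid synthesis, the difference was -0.65 ± 0.55 (adjusted p = 0.66), and -0.16 (adjusted p = 0.91) without replicate 1. Cyp11a1 was well above background on 1 null and 2 wild-type arrays. For Cyp17a1, which makes androgens, the difference was -0.02 ± 0.18 (adjusted p = 0.98). Scarb1, the receptor for lipoprotein cholesterol, differed by 0.26 (adjusted p = 0.39), and by 0.43 (adjusted p = 0.0068) without replicate 1, where a second Scarb1 probe gave 0.08 (adjusted p = 0.57).

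Of 27 pregranulosa and ovarian somatic genes, 4 rose and 1 fell, beside 1.69% and 0.841% of all genes. Their median was 0.13, and 0.06 without replicate 1. The study had already named Nr0b1, Podxl, Runx1 and Zbtb7c as raised or kept in ovaries without Foxl2. The count of rises is therefore not independent of that study. Besides Nr0b1, the risen members were Podxl, a sialomucin of epithelial surfaces (0.81 ± 0.13, adjusted p = 0.013), Runx1, a transcription factor of the supporting lineage (0.49 ± 0.1, adjusted p = 0.038), and Zbtb7c, a zinc finger protein (0.44 ± 0.09, adjusted p = 0.033). A second Podxl probe gave 0.08 (adjusted p = 0.61). The Podxl call was lost without null replicate 2 or 3 (adjusted p up to 0.056), that of Runx1 without any null array or wild-type replicate 2 (up to 0.14), and that of Zbtb7c without any array but wild-type replicate 1 (up to 0.19). The fallen member was Fst, which encodes follistatin, the extracellular inhibitor of activin. Fst read -0.08, 0.65 and 0.35 on the null arrays and 1.66, 1.44 and 1.82 on the wild-type arrays (-1.33 ± 0.17, adjusted p = 0.0029), the change without replicate 1 was -1.31, and the heterozygous arrays averaged 0.74. Rspo1, a secreted activator of Wnt signalling in the fetal ovary, read 5.44, 5.76 and 5.94 against 5.06, 5.31 and 5.63 (0.38 ± 0.15, adjusted p = 0.28). Without replicate 1 the Rspo1 difference was 0.23 (adjusted p = 0.41). Kitl, the ligand by which granulosa cells signal to oocytes, read 0.21, 0.16 and 0.09 against 0.7, 0.34 and 0.54 (-0.37 ± 0.11, adjusted p = 0.15).

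Genes of the somatic cells of growing follicles had a median of -0.3, and 18 of the 20 measured were lower in null ovaries. Only Fst was called, beside 0.841% of all genes that fell, and 3 fell (2.73% of all genes) without replicate 1, namely Fst, Hsd17b1 and Gja1, with a median of -0.15. Gja1, the gap junction protein connexin 43, read -1.69, -1.63 and -1.97 in null ovaries and 0.6, -0.95 and -1.09 in wild-type ovaries, and its change was -1.28 ± 0.35 (adjusted p = 0.12) with all arrays and -0.72 (adjusted p = 0.013) without replicate 1. Nr5a2, a nuclear receptor of granulosa cells, read -0.01, 0.07 and 0.31 against 2.34, 0.55 and 1.52 (-1.34 ± 0.39, adjusted p = 0.15), and -0.92 (adjusted p = 0.16) without replicate 1. Both genes were highest on wild-type replicate 1, the array with the highest growing follicle values among the newborn arrays.

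Of 30 genes of primordial and growing oocytes, 2 fell and none rose, beside 0.841% and 1.69% of all genes. Their median was -0.09, and -0.17 without replicate 1. The fallen members were Oog1 and Padi6, a component of the oocyte cytoplasm, which read 3.16, 3.15 and 3.32 on the null arrays and 3.8, 3.87 and 3.84 on the wild-type arrays (-0.63 ± 0.07, adjusted p = 0.0014), with a call that was kept without each array in turn. None of 25 meiosis genes was called, and the members with the lowest p, the synaptonemal complex genes Sycp2 and Tex12 and the cohesin gene Stag3, differed by 0.54, 0.47 and 0.48 (adjusted p = 0.35, 0.27 and 0.22).

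In the TGF-beta, activin and BMP pathway, 4 of 38 genes fell and 2 rose, beside 0.841% and 1.69% of all genes, with a median of -0.01. The falls described here were those of the ligand Bmp3, the inhibitor Fst and the transducer Smad3. Smad3, which carries activin and TGF-beta signals to the nucleus, read 0.45, 0.47 and 0.66 without Foxl2 and 1.29, 1.2 and 1.82 with it (-0.91 ± 0.14, adjusted p = 0.013), whereas a second Smad3 probe read 0.01 in both groups. The rises were Id2, a target gene of BMP signalling (0.66 ± 0.1, adjusted p = 0.0069), and Fstl3, an activin-binding protein related to follistatin (0.31 ± 0.05, adjusted p = 0.014). Smad6, which inhibits BMP signalling, differed by 0.41 (adjusted p = 0.056) and was called without replicate 1 (0.43, adjusted p = 0.036). The Smad3 call was lost without null replicate 1 or 2 (adjusted p up to 0.067).

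In the Wnt pathway, 2 of 36 genes rose and 1 fell, beside 1.69% and 0.841% of all genes, with a median of 0.08. The risen genes were the ligand Wnt11 and the secreted Wnt inhibitor Wif1. Wnt11 read 2.67, 2.56 and 2.66 in null ovaries and 0.67, 1.53 and 1.3 in wild-type ovaries (1.47 ± 0.17, adjusted p = 0.0017). Wif1 read 2.36, 2.09 and 1.96 against 0.7, 0.68 and 0.26 (1.59 ± 0.3, adjusted p = 0.025), and it was well above background on all null arrays but on only 1 wild-type array. The fallen gene was Dkk3, a secreted protein of the dickkopf family, at 0.14, 0.24 and 0.32 against 1.8, 1.17 and 1.21 (-1.16 ± 0.16, adjusted p = 0.005). Lef1, a transcription factor that acts with beta-catenin, differed by 1.11 (adjusted p = 0.1) and was called without replicate 1 (1.29, adjusted p = 0.035), but it was well above background on only 1 wild-type array. No Notch or Hedgehog gene was called among 25, and Dhh was the only such gene called without replicate 1.

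Extracellular matrix genes moved in both directions. Of 43 measured, 6 rose and 1 fell, beside 1.69% and 0.841% of all genes, with a median of 0.11. The list holds genes from the study's own rankings in Foxl2 mutants, among them Fbln2, Adamts8, Mmp23, Col8a1, Serpine2 and Gpc4. Its counts are therefore not independent of that study. The rises with the largest size on the brightest probe were Fbln2, the elastic fibre protein Eln (0.82 ± 0.16, adjusted p = 0.026), the protease Adamts8 (0.76 ± 0.11, adjusted p = 0.0076) and the metalloprotease Mmp23 (0.73 ± 0.13, adjusted p = 0.022). A second Eln probe gave 0.32 (adjusted p = 0.052). The fall was that of Col8a1, a short-chain collagen, which read -2.7, -2.85 and -2.76 without Foxl2 and -1.34, -2.14 and -1.46 with it (-1.12 ± 0.17, adjusted p = 0.0076). Without replicate 1, Serpine2, a secreted protease inhibitor (-0.87, adjusted p = 0.039), and Gpc4, a glypican (-0.55, adjusted p = 0.038), were called as well. The Col8a1 call was lost without wild-type replicate 3 (adjusted p = 0.052), that of Eln without null replicate 2 or 3 or wild-type replicate 3 (up to 0.11), and that of Mmp23 without null replicate 1 or 3 or wild-type replicate 2 or 3 (up to 0.084).

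Among 29 axon guidance and neuronal adhesion genes, 3 fell and 1 rose, beside 0.841% and 1.69% of all genes, with a median of -0.01. Lrrc4, a synaptic adhesion protein, fell by 1.03 ± 0.2 (adjusted p = 0.029), the ephrin Efnb2 by 0.46 ± 0.09 (adjusted p = 0.029) and the semaphorin Sema3c by 0.36 ± 0.08 (adjusted p = 0.041). Sema3a, another semaphorin, read -1.58, -1.29 and -1.5 against -1.91, -1.93 and -1.96 (0.48 ± 0.09, adjusted p = 0.023), while a second Sema3a probe gave -0.02 (adjusted p = 0.97). The Lrrc4 call was lost without null replicate 1 or 2 or wild-type replicate 2 (adjusted p up to 0.12), that of Sema3a without null replicate 2 or 3 or wild-type replicate 2 or 3 (up to 0.082), that of Efnb2 without any array but wild-type replicate 1 (up to 0.13), and that of Sema3c without any of the 6 arrays (up to 0.17).

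Metabolic and housekeeping lists were read against the 1.69% of all genes that rose and the 0.841% that fell. Of 24 glutathione and retinoid genes, the glutathione transferase Gsta3 (0.97 ± 0.16, adjusted p = 0.011) and the peroxidase Gpx1 (0.24 ± 0.05, adjusted p = 0.038) rose and Ephx2 fell. No gene was called with all arrays among 18 glycolysis, 69 cytosolic ribosomal protein and 69 oxidative phosphorylation genes. Their medians were 0.21, 0.11 and 0.02, beside 0.02 for all genes. Without replicate 1, where 4.36% of all genes were called higher, 2 of 18, 7 of 69 and 2 of 69 members of these lists were called higher, among them the glucose transporter Slc2a1 (0.64, adjusted p = 0.044), the hexokinase Hk2 (0.92, adjusted p = 0.011), the ribosomal protein genes Rpl14 (0.35, adjusted p = 0.031), Rpl3l (0.31, adjusted p = 0.032) and Rpl7 (0.31, adjusted p = 0.029), and the cytochrome oxidase genes Cox7a1 (0.67, adjusted p = 0.0016) and Cox4i2 (0.34, adjusted p = 0.012), for which a second probe gave -0.06 (adjusted p = 0.77). The Gpx1 call was lost without any array but wild-type replicate 1 (adjusted p up to 0.18).

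Of 31 cell cycle genes, the cyclin Ccnb2 was the only one called (0.31 ± 0.07, adjusted p = 0.042, up to 0.21 without any array but wild-type replicate 1), and 6 were called higher without replicate 1, beside 4.36% of all genes, including the anaphase activator Cdc20 (0.87, adjusted p = 0.0036), the phosphatase Cdc25c (0.52, adjusted p = 0.01) and the replication factor Mcm7 (0.41, adjusted p = 0.025). In that comparison a second Cdc25c probe gave 0.23 (adjusted p = 0.075), and further Mcm7 probes gave 0.06 and 0.41 (adjusted p = 0.86 and 0.017). Of 23 apoptosis genes, the tumour necrosis factor receptor Tnfrsf1a rose (0.37 ± 0.06, adjusted p = 0.01), and the p53 target Bbc3 was called only without replicate 1 (0.58, adjusted p = 0.0097). Of 25 measured genes that the study ranked lower without Foxl2 on another array platform before or at birth, 6 fell and none rose, and of 29 that it ranked higher, 8 rose and none fell, beside 0.841% of all genes fallen and 1.69% risen. Those lists were drawn from ovaries without Foxl2, some of which also lacked Wnt4 or Kit function. Some members were ranked by a change shared with Wnt4-null ovaries. The lists are not independent evidence of direction.

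**Figure D5:**
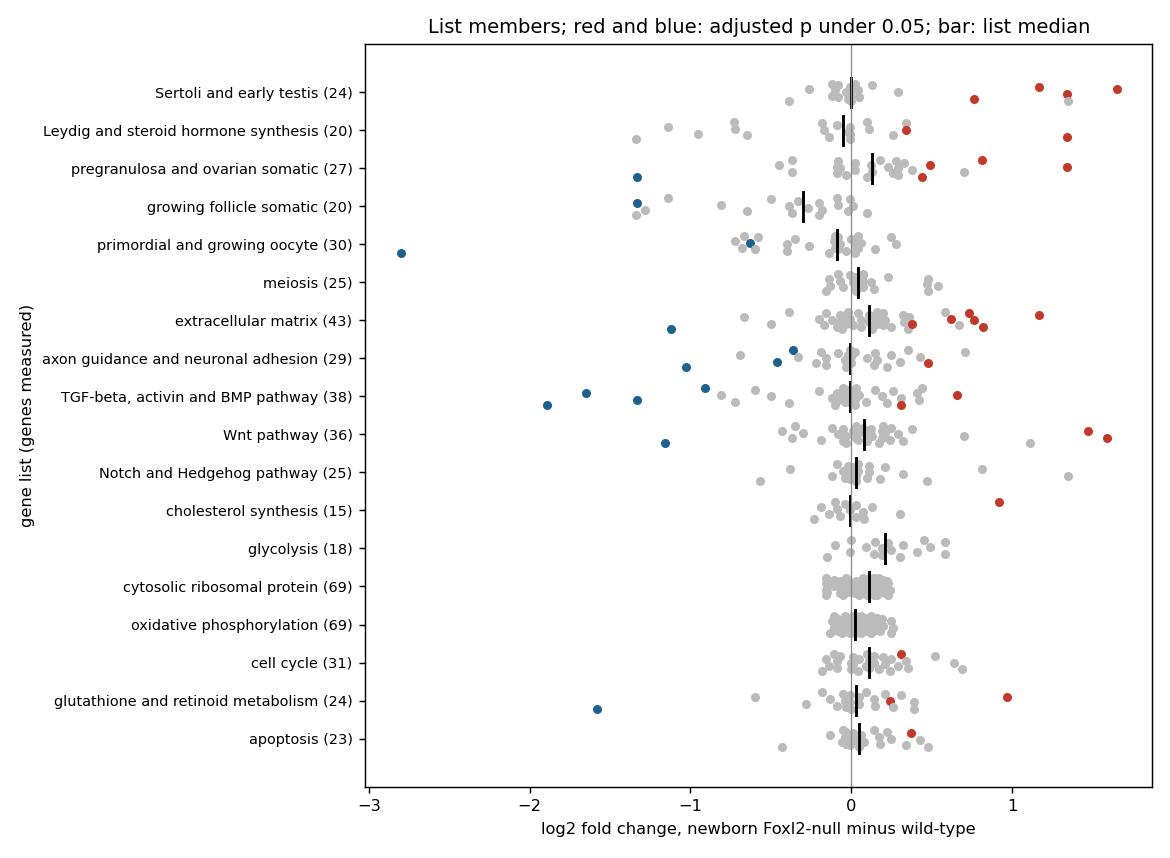
Log2 fold change between newborn Foxl2-null and wild-type ovaries for the measured members of 18 gene lists, 1 point per gene, with the vertical bar at the list median. Red and blue points are members called higher or lower at a limma adjusted p under 0.05, grey points were not called, and the median of the growing follicle list lies at -0.3.

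Markers of other cell types were compared in the same way. No blood, endothelial, smooth muscle, mesonephric, liver or pancreatic marker was called with all arrays. The summed log2 ratio of the liver and pancreas markers nevertheless did not overlap, at 2.75 to 2.9 without Foxl2 and 3.12 to 3.45 in wild-type ovaries. In the adrenal cortex list the ACTH receptor gene Mc2r rose (0.58 ± 0.11, adjusted p = 0.022), as did the immediate early gene Ier3 (0.58 ± 0.11, adjusted p = 0.026) among 16 genes that respond to handling, both of which were named after their values were seen. The summed log2 ratio of the 4 adrenal markers ranged from 2.69 to 2.73 without Foxl2 and from 2.36 to 2.49 in wild-type ovaries, and that of the handling genes from 2.67 to 2.93 and from 2.64 to 2.81. The part of adrenal, liver, pancreas or handling RNA in these results was not tested. The Mc2r call was lost without any null array or wild-type replicate 3 (adjusted p up to 0.09), and the Ier3 call without null replicate 2 or 3 or wild-type replicate 3 (up to 0.1). The smallest adjusted p among the rises, 1.9e-05, was that of Tpst2, a protein tyrosine sulfotransferase, which rose by 1 ± 0.05 and was also named after its values were seen.

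The heterozygous newborn ovaries are given beside the null ovaries. They averaged -1.05 for Vdr, between -0.09 and -1.87 for the null and wild-type means, and -1.52 for Metrnl, between -2.53 and -0.75. In contrast, the heterozygous mean of Coch was 1.02, near the wild-type mean of 1.07, and that of Cst9 was 0.88 against 0.7 in wild-type and 2.35 in null ovaries. Null and heterozygous arrays differed at 163 probes (0.398%), and directly for Vdr (0.96, adjusted p = 0.0078), Coch (-1.38, adjusted p = 0.0062), Cst9 (1.47, adjusted p = 0.013) and Usp26 (-1.52, adjusted p = 0.0064). For Fst the same difference was -0.43 (adjusted p = 0.48), and for Bmp3 -0.45 (adjusted p = 0.76).

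The null effect at birth was set beside that in pools of ovaries at 7 dpn, which were other arrays. Both effects came from the same normalization and the same fit, with a shared estimate of the spread of each probe. The calls at birth and at 7 dpn are therefore not separate tests. At 7 dpn 1054 of 12249 genes were called (8.6%), 548 of them risen and 506 fallen. Of the 207 genes risen at birth, 129 were also risen at 7 dpn, which is 62.3% of the newborn and 23.5% of the 7 dpn rises. Of the 103 genes fallen at birth, 69 were also fallen at 7 dpn, or 67% of the newborn and 13.6% of the 7 dpn falls. Vdr changed by 1.78 at birth and by 2.05 at 7 dpn, Cst9 by 1.65 and 2.22, Sox9 by 0.76 and 1.71, and Fst by -1.33 and -1.63, each called at both ages.

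A test of the difference between the ages called 34 of 12249 genes (0.278%), of which 6 had risen and 4 had fallen at birth. Sema3a rose by 0.48 at birth and by 1.7 at 7 dpn, and the effects differed by -1.22 (adjusted p = 0.014). The genes fallen at birth and risen at 7 dpn were 3, named after their values were seen. Chrnb1, a subunit of the muscle acetylcholine receptor, read -0.51, -0.44 and -0.41 on the newborn null arrays and 0.12, 0.27 and 0.3 on the newborn wild-type arrays, with effects of -0.68 at birth and 0.9 at 7 dpn (adjusted p of the difference = 0.0015). Atp6v1c2, a proton pump subunit, changed by -0.57 and 0.84 (adjusted p = 0.018), and Ezr, the membrane linker ezrin, by -0.38 and 0.32 (adjusted p = 0.032). At birth the Atp6v1c2 call was lost without null replicate 2 or 3 or wild-type replicate 2 (adjusted p up to 0.14) and the Ezr call without wild-type replicate 2 (0.067). At 7 dpn the effects of Cyp19a1 (-2.42, adjusted p = 0.002), Gja1 (-2.9, adjusted p = 0.0027) and Nr5a2 (-2.53, adjusted p = 0.011) were called, and the difference of each of these effects from that at birth had an adjusted p of 0.17, 0.29 and 0.56.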

How the data were processed

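The samples were ovaries hybridized to 2-colour Agilent arrays, and per the labels and file headers the authors deposited scanner files with background-subtracted and dye-normalized intensity values of Agilent Feature Extraction A.7.5.1. The ratio of the ovary (Cy3) to the reference (Cy5) intensity was taken as log2 for each of 41006 non-control probes, without outlier spots, averaged over spots of a probe, and normalized against the mean array by local linear loess (span 0.01), where the methods name local mean regression, which was run as an alternative. The series values deposited by the authors were used as log2 in an alternative, and their scale was checked against the scanner files. Group means were fitted over 15 arrays in R 4.3.3 with limma 3.58.1, p-values were adjusted over all probes (Benjamini-Hochberg), and a call is an adjusted p under 0.05. Every adjusted p is from limma. The procedure was tested on simulated data. Probes were named by accession through RefSeq (GRCm38.p6), which named 15294 probes for 12254 genes, the brightest probe representing a gene. The other 25712 probes are unnamed here. In each newborn null or wild-type array, 94.3% to 96.5% of probes were well above background and 22 to 86 were saturated, and the number of arrays limits the precision. Where a gene was not well above background on any array of a group, the fold is the bound against the lowest signal well above background, open to dye bias because dyes were not swapped. Genes named were by rule the 15 largest rises and 15 largest falls whose groups did not overlap, 8 and 8 without wild-type replicate 1, list members called in either fit (at most 4 a direction, by size, or 3 with the lowest p), and genes fixed by name, of which Inhbb and Wnt4 had no named probe. A few genes that this rule names are not reported here. Members and lists were chosen with earlier results of these data known. Several lists also hold genes that the study had ranked in Foxl2 mutants, such as Lrrc4, Smad3, Wnt11 and Ephx2. Counts of called members in such lists are not independent of that study. All newborn arrays were read on the same day, and all 7 dpn arrays on another, so that date and age cannot be told apart.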

Additional observations from a re-analysis of the deposited data

Results flagged for a closer look

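For 4 of the genes described above, the effect of losing Foxl2 differed between birth and 7 dpn by a direct test in the limma fit, given here as the newborn minus the 7 dpn log2 fold change. The difference was -1.22 for Sema3a, whose second probe read -0.02 at birth. It was -0.7 for Ezr, -1.4 for Atp6v1c2 and -1.59 for Chrnb1, which were lower in null ovaries at birth and higher at 7 dpn. The newborn RNA came from individual mice and the 7 dpn RNA from pools, the labels name an amplification kit for all arrays whereas the methods describe labelling without amplification at 7 dpn, and age and scan day cannot be told apart in these differences.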

How the results depend on the processing

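In place of 685 probes, 224 were called with the ovary channel alone, 380 with only the 9 newborn arrays, 98 with only the 6 null and wild-type arrays, 4186 with array weights, 232 at an adjusted p under 0.01, and 294 to 2959 when 1 array was left out. Against wild-type replicate 1 alone, added after seeing the data, 560 were called, 28.6% of them higher, compared with 62.8% with all arrays and 45.9% without replicate 1. Without wild-type replicate 1, the 2959 probes became 769 with the ovary channel alone, 1942 with the authors' series values, 11 with only the remaining null and wild-type newborn arrays, and 610 to 2749 with a further array left out. The 77 probes whose effect differed between ages became 231 with normexp, 1 with the ovary channel alone, 912 with array weights, 35 without wild-type replicates 2 and 3, and 15 to 1329 with 1 array left out. Replicate numbers did not pair the samples (same-number correlations -0.17, -0.06 and -0.03), and with the replicate number as a block the counts were 565 and, between ages, 13. The causes of these shifts were not tested. No named gene called with all arrays turned its direction under any alternative run, and 259 of 1026 such values lost the call. Among genes not called, the direction turned against wild-type replicate 1 alone for Hk2 (-0.37), Cdc25c (-0.04), Mcm7 (-0.03), Scarb1 (-0.11), Cox4i2 (-0.01), Rpl7 (-0.03), Cox7a1 (-0.79), Foxl2 (0.01), Mlc1 (0.29), Vmn1r58 (0.11), Tnni2 (0.08), Tnnc2 (0.12) and Acta1 (0.08), with the ovary channel alone for Cdc25c (-0.08), Cox4i2 (-0.19) and Foxl2 (0.01), and with the series values for Gldn (0.19) and Cyp17a1 (0.01). Cox7a1 ranged from -0.04 to 0.67 and Cyp17a1 from -0.07 to 0.04 with 1 array left out, and Cyp17a1 read 0.01 with median centring or 9 arrays, 0.03 with 6 arrays and 0.05 with array weights. A block for scan date was not run, since each date held a single age.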
